A study of Homo sapiens
Mus musculus and Homo sapiens and Mus musculus with 7 samples.

Results

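The 59 genes described here encode subunits of respiratory chain complexes I to IV and lie in the nuclear genome. They were chosen by symbol from the 58721 human genes counted, and each symbol matched 1 identifier. Complex I was represented by 35 genes, complex II by 4, complex III by 9 and complex IV by 11. The study grew HEK293 cells, a human embryonic kidney line expressing HA-tagged RPL22 (a protein of the large ribosomal subunit), together with NIH3T3 cells, a mouse fibroblast line expressing V5-tagged RPL22. RNA was taken from immunoprecipitates (IPs) of that mixed culture with HA antibody (n = 2, from lysates 1 and 5) and with V5 antibody (n = 2, from lysates 1 and 4). It was also taken from the mixed culture without IP (the input, n = 1), from HEK293 cells alone (n = 1) and from NIH3T3 cells alone (n = 1). The sources used here do not state whether the monocultures carried a tag, what drove the tagged genes or whether the lines were single clones.

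Electrons from NADH enter the respiratory chain at complex I and those from succinate at complex II. Both complexes pass them to ubiquinone, complex III hands them on to cytochrome c, and complex IV gives them to oxygen. Complexes I, III and IV are built from subunits of 2 origins: a few are encoded by mitochondrial DNA and made on mitochondrial ribosomes, and the others are encoded in the nucleus, made on cytosolic ribosomes and imported. Complex II is made of nuclear-encoded subunits alone. RPL22 belongs to the cytosolic ribosome, so an IP of tagged RPL22 is meant to collect RNA bound to the cytosolic ribosomes of the tagged line.

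Levels below are CPM, counts per 1e6 human counts of a library. Human counts numbered 729698 and 1213213 in the HA IPs (82.1% and 77.6% of all counts), 128915 and 81798 in the V5 IPs (6.25% and 4.48%), 280163 in the input (26.9%) and 826673 in HEK293 cells. A single count was therefore worth 1.37 and 0.824 CPM in the HA IPs, 7.76 and 12.2 CPM in the V5 IPs, 3.57 CPM in the input and 1.21 CPM in HEK293 cells. Genes associated with HEK293 cells (7 keratin, neurofilament and transcription factor genes) summed to 248 and 188 CPM in the HA IPs, 85.3 and 73.4 CPM in the V5 IPs, 182 CPM in the input and 305 CPM in HEK293 cells, with 2 to 6 of them at 0 in a library. The 7 human fibroblast markers summed to 0 to 2 counts per library. NIH3T3 cells gave 4 counts on the 59 genes, 1 each on NDUFB3, NDUFB9, SDHB and COX6A1, among 1999078 counts, so mouse reads counted on these human genes were few. Culture and sampling are not described beyond the lysate numbers, so the spread within a pair may be technical.

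Together the 59 genes made up 3.99% and 4.34% of the human total for the HA IPs, 2.95% and 3.11% for the V5 IPs, 3.11% for the input and 2.93% for HEK293 cells. Exact 95% intervals, which cover counting error only, were 3.05 to 3.18% in the input and 2.90 to 2.97% in HEK293 cells. Both HA IPs lay above all 4 other libraries, and the V5 IPs, the input and HEK293 cells lay close together. The HA IPs averaged 4.17% ± 0.246 and the V5 IPs 3.03% ± 0.119 (SD, n = 2 each). As shares of human counts in bulk samples, these values give neither the number of human cells nor the amount of RNA per cell.

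Complex I took 2.35% ± 0.333 of human counts in the HA IPs, 1.77% ± 0.141 in the V5 IPs, 1.77% in the input and 1.44% in HEK293 cells. Complex IV took 1.19% ± 0.136 in the HA IPs, 0.834% ± 0.0509 in the V5 IPs, 0.881% in the input and 0.886% in HEK293 cells. Complex III followed with 0.583% ± 0.0621 in the HA IPs, 0.401% ± 0.0334 in the V5 IPs, 0.435% in the input and 0.560% in HEK293 cells. For complexes I, III and IV the HA mean was the highest of the 4, but for complex III it exceeded HEK293 cells by less than its SD. Complex II, which links the chain to the citric acid cycle, was the smallest with 0.0362% ± 0.0140 in the HA IPs, 0.0264% ± 0.00442 in the V5 IPs, 0.0289% in the input and 0.0445% in HEK293 cells.

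The subunits that mitochondria make themselves were distributed in another way. Nuclear-encoded counts for complexes I to IV exceeded those of the 13 mitochondrially encoded subunits, 2 of which belong to ATP synthase, 23.9 and 18.7 times in the HA IPs, 2.95 and 1.95 times in the V5 IPs, against 1.10 times in the input and 0.982 times in HEK293 cells. Within complex IV, whose catalytic core is mitochondrially encoded, the nuclear-encoded subunits had 13.4 and 9.11 times the counts of the mitochondrial ones in the HA IPs, 1.85 and 1.01 times in the V5 IPs, 0.662 times in the input and 0.610 times in HEK293 cells. Within complex I the ratios were 61.5 and 49.997 for the HA IPs, 5.44 and 4.51 for the V5 IPs, 2.15 in the input and 1.78 in HEK293 cells. In each of complexes I, III and IV both HA IPs lay above both V5 IPs, and these above the input and HEK293 cells. Most of the distance came from the mitochondrial side: those 13 genes held 0.199% ± 0.0457 of human counts in the HA IPs, 1.30% ± 0.425 in the V5 IPs (SD, n = 2 each), 2.82% in the input and 2.99% in HEK293 cells.

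**Figure D1:**
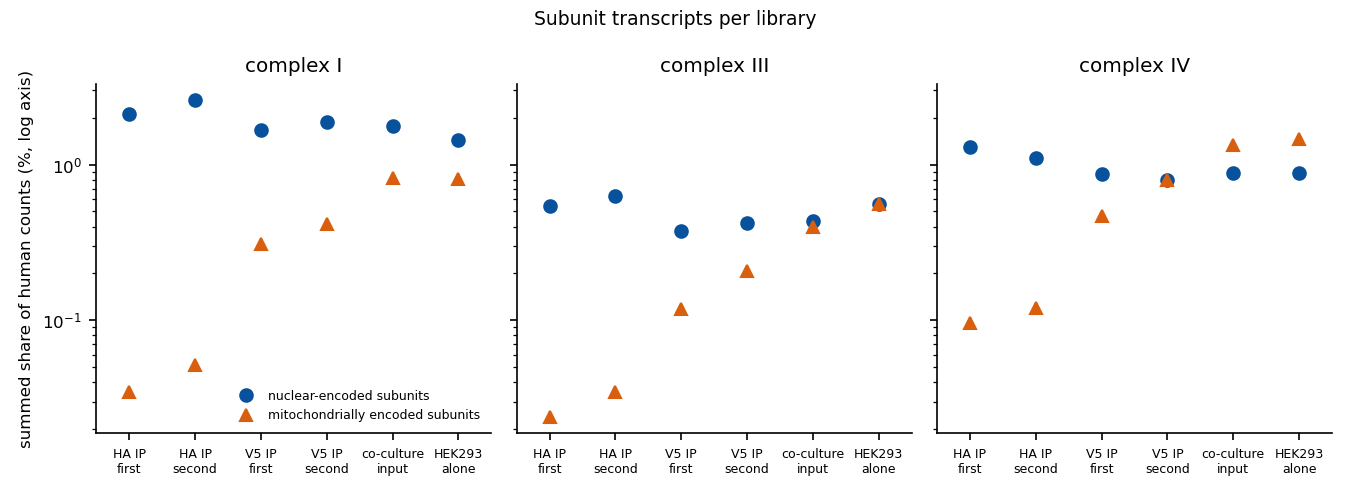
Summed share of human counts (%, log axis) of the nuclear-encoded subunits (circles) and of the mitochondrially encoded subunits (triangles) of complexes I, III and IV in each library. The circles stay within a narrow band, while the triangles are lowest in the HA IPs, with 0.0344% and 0.0518% for complex I against 0.820% in the input.

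Levels of single genes differed widely. As CPM per kb of exonic length, averaged over the 6 libraries with human RNA, they ran from 0.604 for NDUFV2 to 3358 for NDUFB7, with a median of 202 over the 59 genes. The medians were 202 for complex I, 18.4 for complex II, 185 for complex III and 480.3 for complex IV. In complex I the accessory subunits NDUFB7 (3358 CPM per kb), NDUFS5 (1928) and NDUFB10 (1242) were highest. These sit in or at the membrane arm. NDUFS1 (1.51) and NDUFV2 (0.604), core subunits of the NADH-oxidising arm, were lowest, but they do not stand for the core. The other core subunits had from 729 (NDUFS3) to 4940 (NDUFS8) counts over the 6 libraries, against 51 for NDUFS1 and 7 for NDUFV2.

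In complex II the iron-sulfur subunit SDHB averaged 57.8 CPM per kb and the membrane anchor SDHD 30.98. The other membrane anchor, SDHC, averaged 5.81 and the flavoprotein SDHA, which oxidises succinate, 2.18. In complex III the small subunits UQCR10 (1462), UQCRQ (638) and UQCRH (371) led, and UQCRB (42.3) and UQCRC2 (33.9), a large structural subunit, were lowest. In complex IV COX8A (2159), COX5B (972) and COX6B1 (716) led, and NDUFA4 (163), first assigned to complex I and now to complex IV, and COX6C (109.9) were lowest. All of these are CPM per kb of the gene's whole annotated exonic length, so genes with long, little-used exons read low.

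**Figure D2:**
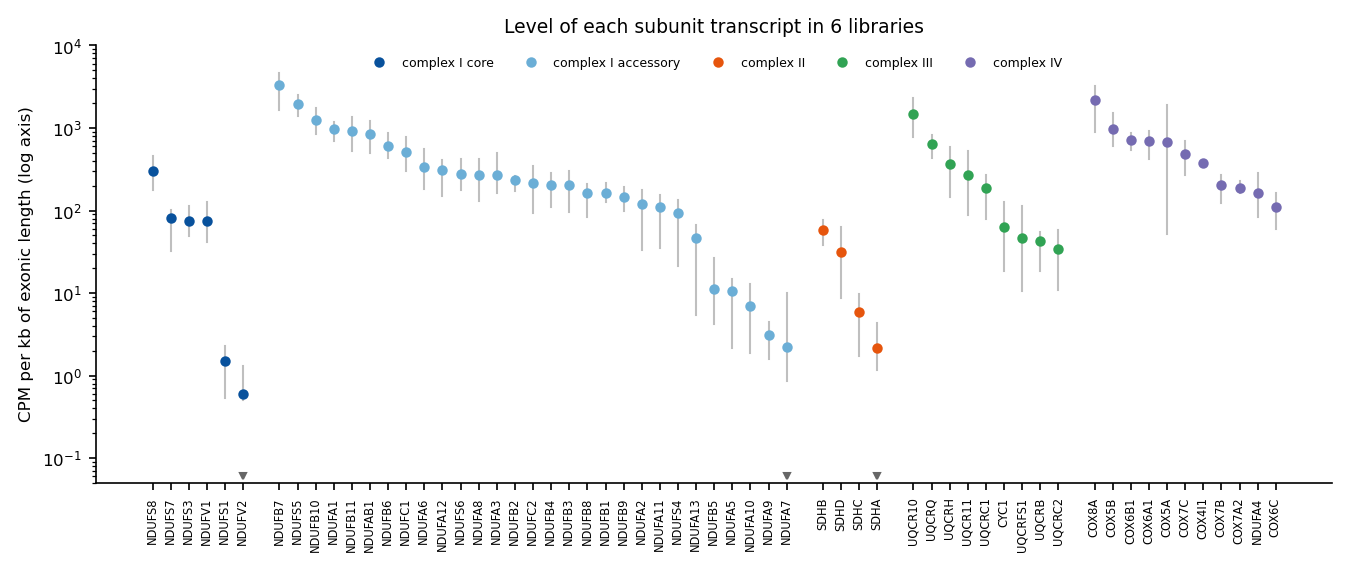
CPM per kb of exonic length (log axis) for each of the 59 genes, ordered by level within complex. Points are means over 6 libraries, grey lines span the lowest to the highest library above 0, and grey triangles at the bottom mark genes with 0 counts in 1 or more libraries (NDUFV2, NDUFA7 and SDHA).

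Of the 59 genes, 56 had counts in all 6 libraries, 9 had 3 counts or fewer in at least 1 library, and 57 passed the filter on low counts. The 2 that did not pass were NDUFV2 and NDUFA7, an accessory subunit of complex I. NDUFV2 had 1 and 3 counts in the HA IPs, 0 in both V5 IPs, 1 in the input and 2 in HEK293 cells. NDUFA7 had 0 and 4 counts in the HA IPs, 0 in both V5 IPs, 4 in the input and 1 in HEK293 cells. These are counts that the depth of the libraries cannot order.

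Sequence shared with other genes touches the same members. Of the 50-base windows of the NDUFV2 transcript, 82.0% also occurred in transcripts of other genes, namely AP005263.1 at its own locus and the pseudogene NDUFV2P1, and for NDUFA7 the share was 76.8% (AC010323.1 and RPS28 at its locus). NDUFV2P1 took 23 counts over the 6 libraries, more than NDUFV2 itself. For SDHA the share was 22.3%, with the pseudogenes SDHAP1, SDHAP2 and SDHAP3 among the genes that share it, and 3 named pseudogenes held 12 counts. SDHA itself had 13 and 12 counts in the HA IPs, 0 and 3 counts in the V5 IPs, 9 in the input and 11 in HEK293 cells. In all, 24 members shared over 10% of their windows with other genes and 4 over 50%. Counts of these members are uncertain, since multi-mapping and ambiguous reads were not counted, per the options in the file headers. COX6A1 had the most counts on named pseudogenes, 96 over the 6 libraries or 2.83% of the sum of both. Over all 34 members with a named pseudogene, pseudogene counts were 162 against 121072 on the 59 members (0.134% of the sum).

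The HA IPs were then compared with the input, which sets RNA on tagged human ribosomes against RNA of the whole mixed culture. None of the 57 members tested passed in edgeR's quasi-likelihood test (Benjamini-Hochberg adjusted p under 0.05), where 0.625% of the 6244 human genes tested did. At an unadjusted p under 0.05 there were 3 members, NDUFV1 lower and NDUFS4 and UQCRB higher, or 5.26% against 8.86% of all genes and 16.6% of the 2377 genes with a mean over 50 CPM. DESeq2 called 1, NDUFV1, and gave no adjusted p for 7. With 50 members given an adjusted p, that 1 call stands beside 5.85% of all 1402 such genes. The median log2 change was 0.30 over the members, with 40 above 0 and 17 below. It was 0.38 over all genes and 0.25 over those with a mean over 50 CPM. The direction of the members' median did not hold in every setting. That median was −0.0279 without the second HA IP, and 0.0822 with DESeq2 size factors, where 31 members lay above 0 and 26 below. Both HA IPs lay above the input in CPM for 38 members (66.7%, against 52.1% of all genes) and below it for 7 (12.3%, against 25.8%).

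Complex I was not uniform in that comparison. The accessory subunits, which stabilise the complex around its catalytic core, had 23 of 28 tested members above 0 and a median of 0.44. The core subunits carry the flavin and iron-sulfur clusters or hold them in place. Those tested, NDUFV1, NDUFS1, NDUFS3, NDUFS7 and NDUFS8, all lay below 0, with a median of −0.26. For all but NDUFV1 the distance from 0 was less than the SE. Of all genes 61.4% lay above 0. The medians were −0.05 for complex II (2 of 4 above 0), 0.46 for complex III (7 of 9) and 0.30 for complex IV (8 of 11). No difference between these groups was tested.

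NDUFV1, the flavoprotein that accepts electrons from NADH, had the lowest value of the members in this comparison. It stood at 209.7 and 208 CPM in the HA IPs, 543 and 403 CPM in the V5 IPs, 635 CPM in the input and 273 CPM in HEK293 cells. The HA IPs nearly coincided and lay below every other library, which makes NDUFV1 one of few members with HA below V5. On the log2 scale the change was −1.78 against the input (SE 0.60; edgeR adjusted p = 0.188). It was −0.81 against the V5 IPs (SE 0.53; edgeR adjusted p = 0.563) and −0.38 against HEK293 cells (SE 0.61; edgeR adjusted p = 1.00).

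At the other end stood NDUFS4 and NDUFA5, accessory subunits of the arm that projects into the matrix. NDUFS4 was at 94.6 and 127 CPM in the HA IPs, 132 and 122 CPM in the V5 IPs, 25.0 CPM in the input and 158 CPM in HEK293 cells. NDUFA5 was at 137 and 59.3 CPM in the HA IPs, 132 and 147 CPM in the V5 IPs, 21.4 CPM in the input and 123 CPM in HEK293 cells. For both genes the input stood apart below all other libraries, and it rested on 7 counts of NDUFS4 and 6 of NDUFA5. Their log2 changes against the input were 1.995 (SE 1.01; edgeR adjusted p = 0.555) and 1.93 (SE 1.06; edgeR adjusted p = 0.597).

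The pattern returned in SDHD, with 121 and 58.5 CPM in the HA IPs, 69.8 and 73.4 CPM in the V5 IPs, 25.0 CPM in the input and 180.2 CPM in HEK293 cells. The log2 change was 1.59 (SE 1.05; edgeR adjusted p = 0.732) against the input and −1.07 (SE 0.83; edgeR adjusted p = 1.00) against HEK293 cells. UQCRC1, a structural subunit of complex III, was at 322 and 547 CPM in the HA IPs, 256 and 880.2 CPM in the V5 IPs, 825 CPM in the input and 759.7 CPM in HEK293 cells. Its HA values lay between the V5 values and below the other libraries (log2 −1.05 against the input, SE 0.56; edgeR adjusted p = 0.587). Leaving out the first HA IP gave −0.64 and leaving out the second gave −1.77. SDHA, at the counts given above, differed by −1.43 (SE 1.52; edgeR adjusted p = 0.872).

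NDUFV1 was the single member to pass in 4 alternative settings. These were DESeq2 size factors (edgeR adjusted p = 0.0261), where 1.09% of all genes passed, a filter of 50 counts in 2 libraries (0.0335; 2.29% of genes), a fit restricted to the compared groups (0.0214; 4.36%) and DESeq2 (0.0182). In the other settings it did not pass. Its log2 change was −0.91 with the GC trend over all genes removed (edgeR adjusted p = 0.981). It was −1.66 when the first HA IP was left out and −2.01 when the second was. Leaving out the first or the second V5 IP gave an edgeR adjusted p of 0.112 or 0.122. Without the second HA IP the log2 change of a different gene, COX5A, was 1.85, which is taken up with the pairs of IPs. That fit held 1 library on each side of the comparison, so its spread came from the V5 pair alone.

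The coding sequences of 4 members show how much base composition varies within the family. NDUFV1 (ENSG00000167792.12; hg38 chromosome 11, 67605653 to 67612554, plus strand) and NDUFA13 (ENSG00000186010.18; chromosome 19, 19515736 to 19529054, plus strand) belong to the GC-rich members. NDUFA5 (ENSG00000128609.14; chromosome 7, 123536997 to 123558255, minus strand) and NDUFS4 (ENSG00000164258.11; chromosome 5, 53560633 to 53683340, plus strand) belong to the AT-rich ones. The 60 bases at the middle of each coding sequence in GENCODE 29 are given 5′ to 3′ with G and C in capitals.
NDUFV1: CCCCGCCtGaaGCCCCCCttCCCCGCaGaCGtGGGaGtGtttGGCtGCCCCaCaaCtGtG
NDUFA13: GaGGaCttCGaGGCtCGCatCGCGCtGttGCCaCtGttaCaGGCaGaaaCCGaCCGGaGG
NDUFA5: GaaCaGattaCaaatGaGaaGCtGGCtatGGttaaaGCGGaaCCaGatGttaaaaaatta
NDUFS4: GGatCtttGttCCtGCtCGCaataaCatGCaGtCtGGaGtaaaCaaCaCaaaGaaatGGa
G and C made up 68.3% of these bases in NDUFV1, 61.7% in NDUFA13, 35.0% in NDUFA5 and 41.7% in NDUFS4. Over the whole transcript GC content was 61.1% for NDUFV1, 61.6% for NDUFA13, 36.4% for NDUFA5, the lowest of the 59 members, and 42.8% for NDUFS4. The members ran up to 66.5%, with a median of 49.2% against 48.1% over the genes tested. Their transcripts were short, with a median of 916 bases against 2439.

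The change between the HA IPs and the input fell along that scale. Across genes, which share the same libraries and are not independent replicates, Spearman's rho between GC content and log2 change was −0.56 over the 57 members and −0.52 over all 6244 genes. The 15 members below 45% GC had a median log2 change of 0.71 and the 17 above 55% a median of −0.01, against 1.39 and −0.46 over all genes. Between the V5 IPs and the input rho was −0.52 over the members and −0.37 over all genes. Between the HA and the V5 IPs it was −0.05 and −0.01.

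The 2 libraries made without IP differed most along it. The input over HEK293 cells, 1 library against 1 with no test, gave rho of 0.73 over the members and 0.66 over all genes. Members above 55% GC had a median log2 ratio of 1.00 and those below 45% one of −1.19. Of 53 members with at least 50 CPM in either library, 5 differed over 4-fold (9.43%, against 15.4% of all such genes). NDUFA13 was higher in the input, and NDUFA5, NDUFS4, SDHD and UQCRC2 were lower. UQCRC2 was at 57.1 CPM in the input and 299 CPM in HEK293 cells. With the GC trend over all genes removed, the named changes in HA against input moved toward 0. NDUFV1 then stood at −0.91, SDHA at −0.77 and UQCRC1 at −0.25, and on the other side NDUFS4 at 1.51, NDUFA5 at 0.95 and SDHD at 0.91. Their edgeR adjusted p-values in that fit were 0.981 to 0.985.

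**Figure D3:**
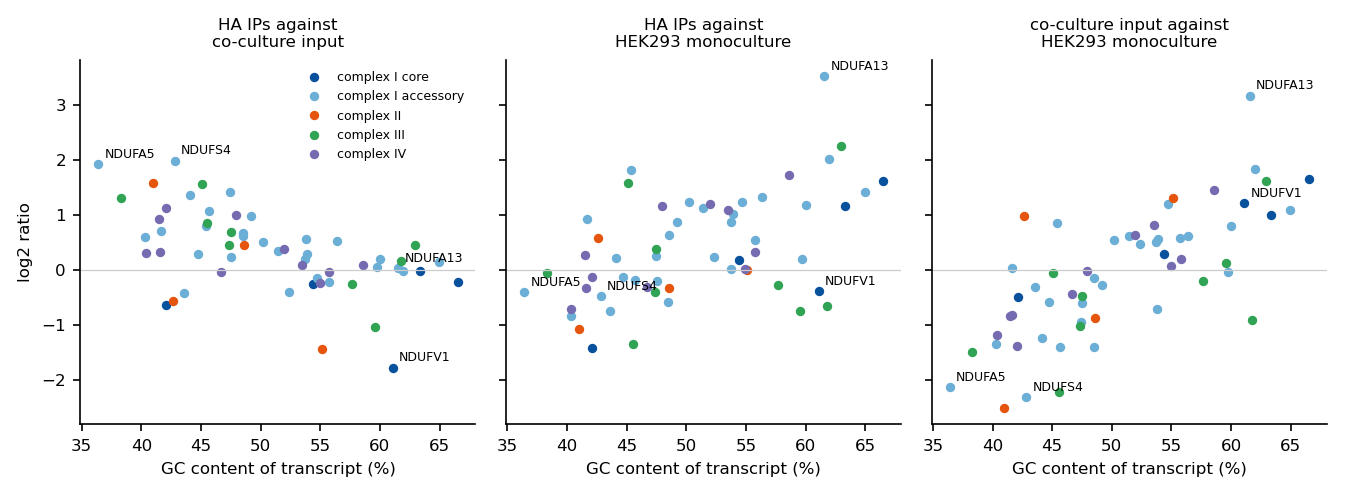
Log2 ratio of the 57 members that passed the filter against GC content of the transcript (%), for the HA IPs over the input, the HA IPs over HEK293 cells (both fitted) and the input over HEK293 cells (CPM ratio with a prior count of 2). Each point is a gene coloured by complex; the points slope down on the left (rho −0.56) and up in the middle (0.49) and on the right (0.73).

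Against the HEK293 monoculture, which sets RNA on tagged ribosomes beside total RNA of the human line grown alone, again no member passed in edgeR, where 0.368% of all genes did. At an unadjusted p under 0.05 there were 13 members, all higher in the HA IPs, which is 22.8% of the 57. Of all genes 2.21% were higher at that p and 3.83% higher or lower, and of those with a mean over 50 CPM 7.82% were higher or lower. DESeq2 called 5, all of them higher (COX8A, NDUFA11, NDUFC2, NDUFS7 and UQCR11), and gave no adjusted p for 22. That is 14.3% of the 35 members with an adjusted p, against 8.06% of all 434 such genes. All 5 are among the 24 members that shared over 10% of their 50-base windows with other genes. The shares were 27.7% for COX8A, 63.9% for NDUFA11, 16.8% for NDUFC2, 25.9% for NDUFS7 and 26.4% for UQCR11. Whether overlap plays a part in these calls was not tested. The median log2 change was 0.23 over the members, with 35 above 0 and 22 below. It was 0.01 over all genes and 0.11 over those with a mean over 50 CPM. Over members that share little exonic sequence with other genes the median was lower, as given in the last section. The median was 0.55 for complex I, −0.16 for complex II, −0.28 for complex III and 0.27 for complex IV. Among the complex I core subunits 3 of 5 lay above 0 here (median 0.19), unlike against the input. Among the accessory ones 20 of 28 did (0.60), and of all genes 50.6%. Both HA IPs lay above HEK293 cells for 28 members (49.1%, against 34.1% of all genes) and below for 17 (29.8%, against 33.6%).

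NDUFA13, an accessory subunit of complex I also known as GRIM-19, was at 153 and 181 CPM in the HA IPs, 163 and 97.8 CPM in the V5 IPs, 146 CPM in the input and 14.5 CPM in HEK293 cells. HEK293 cells, with 12 counts, stood alone below the 5 libraries from the mixed culture. The log2 change between the HA IPs and HEK293 cells was 3.53 (SE 0.98; edgeR adjusted p = 0.0748), and against the input it was 0.03 (SE 0.80; edgeR adjusted p = 0.995). A gene that overlaps NDUFA13, AC011448.1, shared 41.3% of the 50-base windows of its transcript.

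UQCR11, a small subunit of complex III, was at 622 and 1123 CPM in the HA IPs, 372 and 575 CPM in the V5 IPs, 585 CPM in the input and 191 CPM in HEK293 cells. Its log2 change against HEK293 cells was 2.25 (SE 0.65; edgeR adjusted p = 0.113). NDUFA11, a membrane-arm subunit of complex I, was at 582 and 754 CPM in the HA IPs, 496 and 562 CPM in the V5 IPs, 607 CPM in the input and 168 CPM in HEK293 cells (log2 2.02, SE 0.65; edgeR adjusted p = 0.308). As with NDUFA13, all 5 mixed-culture libraries exceeded the monoculture. AC005943.1 overlaps UQCR11 and AC024592.3 overlaps NDUFA11, which is among the 4 members that shared over 50% of windows.

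The lowest values in this comparison belonged to NDUFS1, UQCRC2 and SDHD. NDUFS1, the largest core subunit of the NADH-oxidising arm, was at 15.1 and 6.59 CPM in the HA IPs and 27.8 CPM in HEK293 cells (log2 −1.42, SE 1.45; edgeR adjusted p = 1.00). UQCRC2 was at 169 and 77.5 CPM in the HA IPs and 299 CPM in HEK293 cells (log2 −1.34, SE 0.70; edgeR adjusted p = 1.00).

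The change against HEK293 cells rose with GC content, with rho of 0.49 over the members and 0.30 over all genes. The 17 members above 55% GC had a median of 1.17 and the 15 below 45% one of −0.32. With the GC trend over all genes removed the changes were 3.08 for NDUFA13 (edgeR adjusted p = 0.161), 1.69 for UQCR11 (0.337) and 1.54 for NDUFA11 (0.642), and −1.23 for NDUFS1, −1.26 for UQCRC2 and −0.86 for SDHD. NDUFA13 passed in a fit restricted to the compared groups (edgeR adjusted p = 0.00372), where 0.734% of all genes did, and with library totals and no scaling factor (0.0339). It also passed without the first V5 IP (0.00388; 0.74% of genes) and without the second (0.00385; 0.694%). Library totals with no factor called 6 members, all higher, or 10.5% against 0.849% of all genes. Without the first HA IP, 1 HA library stood against 1 HEK293 library, with the spread from the V5 pair alone. Log2 changes were then 2.02 for COX8A, 2.31 for NDUFA11, 1.65 for NDUFB7, 1.49 for NDUFS8 and 2.70 for UQCR11. With all IPs they were 1.72, 2.02, 1.42, 1.17 and 2.25. COX5A stood at 2.04 without the second HA IP and at 1.16 with all IPs. UQCR11 alone passed with DESeq2 size factors, where 0.529% of all genes did, and with IP order as a block, where 0.448% did.

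The third comparison set human RNA in the HA IPs against the human RNA that came down in the V5 IPs, where the antibody targets the mouse line. No member passed in edgeR, where 0.368% of all genes did, and none passed in DESeq2, where 0.673% of the genes with an adjusted p did. At an unadjusted p under 0.05 there were 22 members, all higher in the HA IPs. That is 38.6% of the 57. Of all genes 8.54% were higher at that p and 11.2% higher or lower, and of those with a mean over 50 CPM 15.8% were higher or lower. The median log2 change was 0.86 over the members, with 49 above 0 and 8 below, against 0.37 over all genes and 0.50 over those with a mean over 50 CPM. Both HA IPs lay above both V5 IPs for 33 members (57.9%, against 25.7% of all genes). They lay below both for 5 (8.77%, against 15%), which were NDUFA10, NDUFS1, NDUFS3, NDUFV1 and UQCRC2. Of the 57 members 54 had a mean over 50 CPM, against 2377 of all 6244 genes. Such shares were not computed among genes of like level in any of the 4 comparisons, so they may reflect abundance.

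All 11 members of complex IV and all 4 of complex II lay above 0, with medians of 0.96 and 0.50. In complex III 7 of 9 did (median 0.79), among the complex I accessory subunits 25 of 28 (0.84), and among the complex I core subunits 2 of 5 (−0.41). Of all genes 60.7% did, and of those with a mean over 50 CPM 72.8%. In complex II, SDHA (0.14, SE 1.55) and SDHB (0.36, SE 0.67) lay within their SE of 0. The summed share of complex II overlapped between the pairs, with 0.0263% in the second HA IP and 0.0295% in the first V5 IP. UQCR10, a small subunit of complex III with the smallest p-value of the members here, was at 1671 and 2228 CPM in the HA IPs against 760.2 and 1259 CPM in the V5 IPs. The pairs did not overlap (log2 1.37, SE 0.44; edgeR adjusted p = 0.185). COX4I1, an abundant subunit of complex IV described for contrast after its values were seen, was at 1780.2 and 1790.3 CPM in the HA IPs against 1714 and 1846 CPM in the V5 IPs, which overlap.

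The highest fitted change was that of SDHC, at 133 and 86.5 CPM in the HA IPs against 38.8 and 24.5 CPM in the V5 IPs, the last 2 resting on 5 and 2 counts. The fitted log2 value was 2.08 (SE 0.88; edgeR adjusted p = 0.344). NDUFA8, an accessory subunit of complex I, was at 358 and 334 CPM in the HA IPs against 155 and 110.0 CPM in the V5 IPs (log2 1.74, SE 0.61; edgeR adjusted p = 0.241). NDUFA2, another, was at 221 and 224 CPM in the HA IPs against 139.6 and 48.9 CPM in the V5 IPs (log2 1.55, SE 0.65; edgeR adjusted p = 0.342), and its change was 2.58 without the first V5 IP and 1.05 without the second. In all 3 genes both HA IPs exceeded both V5 IPs. The lowest were NDUFS1 (−0.82, SE 1.46; edgeR adjusted p = 0.865), NDUFV1 and NDUFA10. NDUFA10, an accessory subunit with 75.4 and 38.7 CPM in the HA IPs against 101 and 122 CPM in the V5 IPs, differed by −0.63 on the log2 scale (SE 0.87; edgeR adjusted p = 0.815). Leaving out the first HA IP gave −1.02 for it, and leaving out the second gave −0.41.

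Human depth in the V5 IPs, the share of human counts in a library and the mitochondrial share move with this comparison, and their part in it was not tested. Without the first HA IP 5 members passed (COX5B, NDUFA3, NDUFS8, UQCR10 and UQCR11, all higher, edgeR adjusted p from 0.000987 to 0.0447), or 8.93% against 1.28% of all genes. COX5A alone passed without the second HA IP (0.00220), where 0.386% of all genes did, and without the first V5 IP (0.00698), where 0.769% did. With the GC trend removed UQCR10 alone did (0.0440), against 0.561% of all genes.

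Human RNA of the V5 IPs was also set against the input. No member passed in edgeR, where 0.753% of all genes did, and none in DESeq2, which gave no adjusted p for 7 and called 4.35% of all genes with one. Unadjusted p-values under 0.05 were found for NDUFA2, NDUFS8, SDHC and UQCRQ, all lower in the V5 IPs, which is 7.02% of the members. Of all genes 7.82% were lower at that p and 12.9% higher or lower, and of those with a mean over 50 CPM 20.8% were higher or lower. The median log2 change was −0.64 over the members, with 16 above 0 and 41 below, and 0.00 over all genes. Over genes with a mean over 50 CPM it was −0.30, with 42.3% above 0. Both V5 IPs lay above the input for 18 members (31.6%, against 30.3%) and below it for 20 (35.1%, against 27.3%). SDHC had the lowest value (log2 −2.64, SE 1.00; edgeR adjusted p = 0.209). The V5 and HA comparisons with the input share that single library.

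The mitochondrially encoded subunits passed where the nuclear-encoded ones did not. All 13 lay below 0 in each of the 4 comparisons, and those that passed had an edgeR adjusted p under 0.05. In HA against input 13 passed (median log2 change −3.94 over the 13), where 0.625% of all genes did. Against HEK293 cells 13 passed (−3.90; 0.368% of all genes). Against the V5 IPs 10 passed (−2.38; 0.368%), and in V5 against input 4 did (−1.85; 0.753%). MT-CO2, a core subunit of complex IV, was at 460.5 and 637 CPM in the HA IPs, 2552 and 3435 CPM in the V5 IPs, 7631 CPM in the input and 6966 CPM in HEK293 cells. Its edgeR adjusted p was 2.89e-13 against the input. COX5B, which binds zinc in the same complex, was at 1721 and 2168 CPM in the HA IPs, 1102 and 1198 CPM in the V5 IPs, 1349 CPM in the input and 864 CPM in HEK293 cells.

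**Figure D4:**
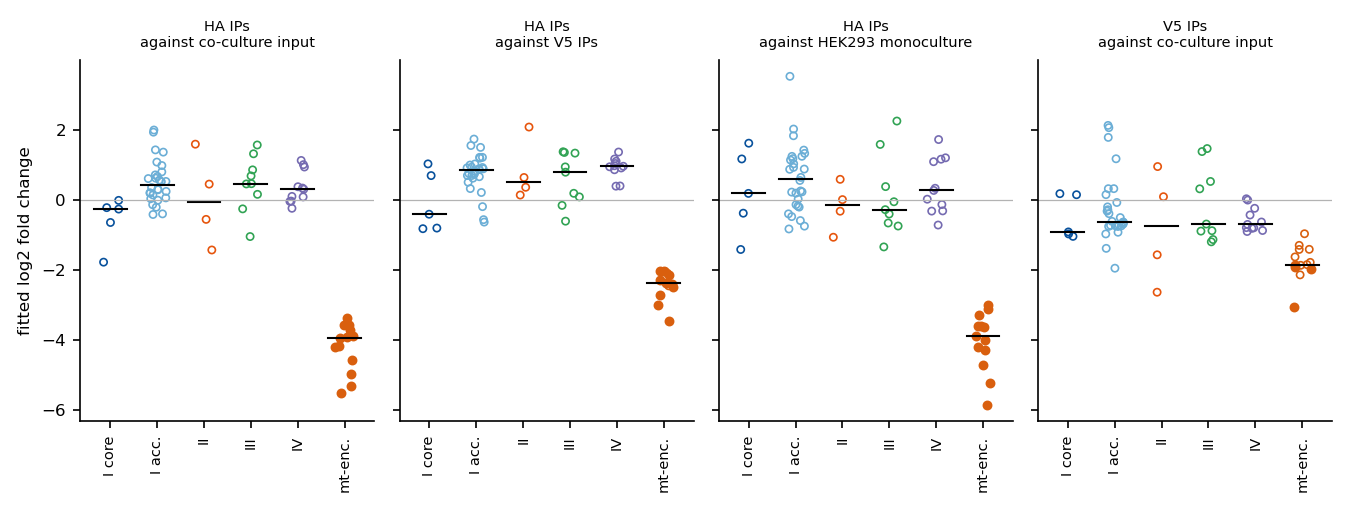
Fitted log2 fold change of each tested gene by complex (core and accessory subunits of complex I, complexes II, III and IV) and of the mitochondrially encoded subunits, in 4 comparisons. Filled points passed an edgeR adjusted p of 0.05, open points did not, and bars are medians; all 57 nuclear-encoded genes are open, and the mitochondrially encoded ones lie below 0 in every panel.

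Changes depend on how libraries are scaled, and the members moved with the other genes. DESeq2 size factors in place of TMM shifted the median of all genes by −0.21 in HA against input and by −0.33 in HA against V5, and library totals shifted them by 0.19 and −0.37. Relative to all genes, the median of the members stayed at −0.08 to −0.09 in HA against input, 0.48 to 0.49 in HA against V5, 0.19 to 0.22 in HA against HEK293 cells and −0.61 to −0.64 in V5 against input under the 3 scalings.

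Between the IPs of a pair most members were close. Of 54 members with at least 50 CPM in either HA IP, 2 differed over 4-fold (3.70%, against 4.25% of all such genes), and the median log2 ratio of the first over the second was −0.09. These 2, COX5A and UQCRFS1, were singled out after their values were seen. COX5A, a subunit of complex IV (chromosome 15, 74919791 to 74938168), was at 2716 and 174 CPM in the HA IPs, 1567 and 73.4 CPM in the V5 IPs, 564 CPM in the input and 575 CPM in HEK293 cells. UQCRFS1, the Rieske iron-sulfur protein of complex III (chromosome 19, 29205321 to 29213541), was at 395 and 36.3 CPM in the HA IPs, 380.1 and 36.7 CPM in the V5 IPs, 57.1 CPM in the input and 64.1 CPM in HEK293 cells.

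In both genes the first IP of each pair was high and the second low, with the input and HEK293 cells between the IPs and close to each other. The first HA IP exceeded the second 15.6-fold for COX5A and 10.9-fold for UQCRFS1, which ranked 8 and 15 of 2590 genes by that ratio. The first V5 IP exceeded the second 21.4-fold and 10.4-fold, on 6 and 3 counts in the second. The first HA and V5 IPs share lysate 1, and the second ones came from lysates 5 and 4, so IP order and lysate cannot be told apart. In the V5 pair 3 of 53 members differed over 4-fold (5.66%, against 17% of all such genes), the third being CYC1, cytochrome c1 of complex III.

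Of the UQCRFS1 windows 17.4% were shared with other transcripts, and of the COX5A windows 0.902%. With the second HA IP left out, the log2 change of COX5A was 1.85 against the input. It was then 1.83 against the V5 IPs and 2.04 against HEK293 cells. Its value in HA against V5 was 4.51 without the first V5 IP, against 0.98 with all IPs. The summed share of the members without both genes was 4.00% ± 0.451 in the HA IPs, 2.93% ± 0.249 in the V5 IPs (SD, n = 2 each), 3.05% in the input and 2.87% in HEK293 cells.

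**Figure D5:**
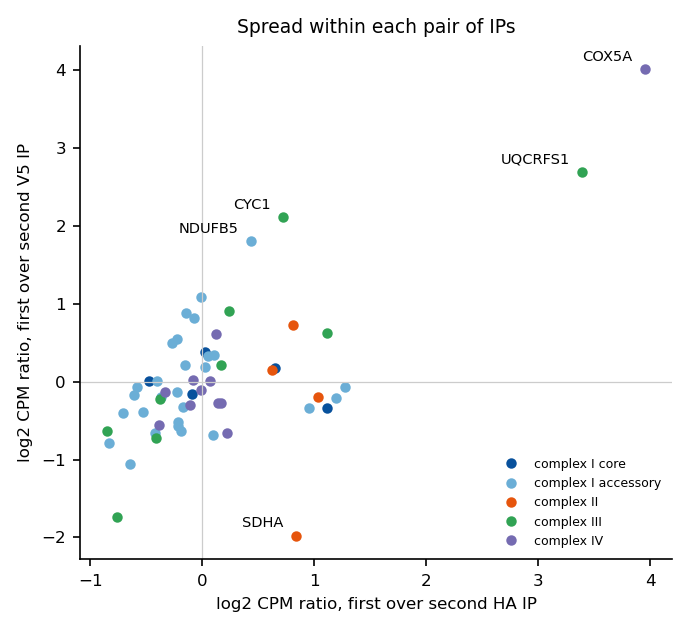
Log2 CPM ratio of the first over the second IP (prior count of 2), for the HA pair (x axis) and the V5 pair (y axis), with 1 point per member that passed the filter, coloured by complex. COX5A and UQCRFS1 stand at the top right, at 3.95 and 3.39 on the x axis, away from the other members.

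Other genes of the pathway were taken from fixed lists. Of 104 nuclear genes tested from them, edgeR called none in any of the 4 comparisons. At an unadjusted p under 0.05 there were 7 in HA against input (6.73%, against 8.86% of all genes), 19 in HA against V5 (18.3%, against 11.2%), 11 in HA against HEK293 cells (10.6%, against 3.83%) and 6 in V5 against input (5.77%, against 12.9%). DESeq2 called TIMM13 and UQCC3 in HA against HEK293 cells, where it called 8.06% of all genes with an adjusted p. It called MDH2 in V5 against input, where it called 4.35% of such genes. For 83 and 52 of the 104 genes it gave no adjusted p in these comparisons. The values that follow are for HA against V5, where 60.7% of all genes lay above 0 (median 0.37). Of genes with a mean over 50 CPM 72.8% did (0.50). For ATP synthase, which uses the proton gradient, 18 of 18 lay above 0 (median 0.94). ATP5IF1, its inhibitory factor and the most abundant of them, was at 4328 and 5751 CPM in the HA IPs, 2482 and 3570 CPM in the V5 IPs, 2377 CPM in the input and 1974 CPM in HEK293 cells, and the subunit ATP5MC3 at 2379 and 2680.5 CPM in the HA IPs against 2412 and 2274 CPM in the V5 IPs. For complex I assembly factors 10 of 13 lay above 0 (0.85), for those of complexes II to IV 24 of 31 (0.66), and for protein import 20 of 22 (0.67). Their most abundant members were NDUFAF3 and COA1, COA3 and SLIRP, and TIMM13 and TIMM17B.

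The citric acid cycle, with MDH2 and IDH3G most abundant, had 6 of 12 above 0 (0.04) and the regulators of respiratory genes 1 of 5 (−1.18). Of those regulators TFAM, which packages and transcribes mitochondrial DNA, was at 126 and 118 CPM in the HA IPs, 186 and 110.0 CPM in the V5 IPs, 21.4 CPM in the input and 112 CPM in HEK293 cells, and CLUH at 10.96 and 19.0 CPM in the HA IPs, 109 and 0 CPM in the V5 IPs, 32.1 CPM in the input and 8.47 CPM in HEK293 cells. Among cytochrome c and alternative isoforms only 3 of 10 passed the filter, and all 3 lay above 0 (1.35). CYCS, the electron carrier between complexes III and IV, was at 830.5 and 682 CPM in the HA IPs, 396 and 367 CPM in the V5 IPs, 264 CPM in the input and 738 CPM in HEK293 cells (log2 1.35 against V5, SE 0.51; edgeR adjusted p = 0.275), and COX7A2L had 90 and 104 counts in the HA IPs against 4 and 0 in the V5 IPs (edgeR adjusted p = 0.228).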

How the data were processed

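Whole-number counts of reads per gene were deposited by the authors, 1 file per library. Per the file headers, counting used featureCounts 1.5.2 over exons in paired mode, without strand (option 0) and without options for multi-mapping or overlapping reads, on a joint human and mouse annotation, so reads of overlapping genes cannot be told apart. STAR 2.5.2, SAMtools, Trim Galore, bcl2fastq and hg38 are named in the submitters' processing notes, and the labels' protocols name SMART-seq cDNA and Nextera DNA Flex libraries. All 58721 human identifiers matched GENCODE 29, the source of lengths, GC content and sequences.

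From the counts, CPM of human counts and CPM per kb of exonic length were computed. Shares have exact Clopper-Pearson 95% intervals. Tests used edgeR 4.0.16 (quasi-likelihood, TMM on human counts, filterByExpr at 10 counts and a total of 15) in R 4.3.3, two-sided, over 6244 genes in 1 fit of 6 libraries with p-values adjusted by Benjamini and Hochberg's method and called below 0.05. There were 2 residual degrees of freedom, from the pairs of IPs, and the single libraries were assumed to vary like them. With an IP left out, only the other pair gave the spread. The biological coefficient of variation was 51.2%. The SE of an edgeR change was derived from its test, as the absolute log2 change over the square root of the F statistic. The procedure was run on data simulated from its own fitted means and dispersions. The share of changes recovered is not reported here, so that run does not show how many changes would be missed. Single libraries were compared by log2 CPM after adding 2 counts, over genes that reached 50 CPM in either.

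Alternatives were DESeq2 1.42.0, DESeq2 size factors, library totals, no filter, 50 counts in 2 libraries, IP order as a block, only the groups compared, each IP left out, genes with over 5% of their level in NIH3T3 cells left out, and removal of the GC trend. They also covered members with under 10% of exonic bases shared and human counts without mitochondrial genes. Members with under 10% of 50-base windows shared, and leaving out COX5A and UQCRFS1, were added after seeing the data. The rest was done in Python 3.11.15 with scipy 1.17.1, pandas 2.3.3, numpy 2.4.6 and, for figures, matplotlib 3.10.9.

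Members and lists were chosen with earlier results of these data known, so no p was computed over a list. Named members are those called, those with the 3 highest and 2 lowest levels per kb in each complex (all 4 of complex II), the 3 highest and 3 lowest changes in each HA comparison, and the 3 with the largest share of counts on pseudogenes or in NIH3T3 cells. Of the other lists they are the genes called, or else the 2 most abundant. COX5A, UQCRFS1, COX4I1 and CYC1 are exceptions, named after their values were seen.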

Additional observations from a re-analysis of the deposited data

How the results depend on the processing

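Members called in edgeR, none in any of the 4 comparisons, numbered 1 in HA against input with DESeq2 size factors, with 50 counts in 2 libraries, in DESeq2 and in the fit of only the groups compared, and 0 to 1 with an IP left out. In HA against V5 the number was 1 with the GC trend removed and 0 to 5 with an IP left out. In HA against HEK293 cells it was 1 with DESeq2 size factors and with only the groups compared, 6 with library totals, 5 in DESeq2 and 1 to 5 with an IP left out. In V5 against input it was 0 throughout. With an IP left out its group was 1 library and the spread came from the other pair alone, so those counts rest on little.

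The median log2 change of the members in HA against input (0.30) was 0.0822 with DESeq2 size factors and in DESeq2, 0.49 with library totals, 0.15 with 50 counts in 2 libraries, 0.17 with only the groups compared, 0.65 with the GC trend removed, 0.46 for members with under 10% of exonic bases shared, 0.45 for those with under 10% of windows shared, and −0.0279 to 0.42 with an IP left out, so its sign depends on the libraries used. In HA against V5 (0.86) it was 0.52 with DESeq2 size factors and in DESeq2, 0.48 with library totals, 0.30 with 50 counts in 2 libraries, 0.57 with only the groups compared, and 0.53 to 1.01 with an IP left out. In HA against HEK293 cells (0.23) it was 0.0133 for members with under 10% of exonic bases shared, and 0.15 to 0.27 with an IP left out. In V5 against input (−0.64) it was −0.53 with DESeq2 size factors and in DESeq2, −0.0748 with library totals, −0.26 with 50 counts in 2 libraries, −0.37 with only the groups compared, −0.17 with the GC trend removed, −0.28 for members with under 10% of windows shared, and −0.66 to −0.55 with an IP left out.

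Over all human genes, the 39 calls in HA against input became 68 with DESeq2 size factors, 104 with library totals, 82 in DESeq2, 260.0 with only the groups compared and 29 to 140.0 with an IP left out. The 23 in HA against V5 became 38 with library totals, 35 with the GC trend removed and 18 to 117 with an IP left out. The 23 in HA against HEK293 cells became 53 with library totals, 35 in DESeq2, 48 with only the groups compared and 26 to 63 with an IP left out. The 47 in V5 against input became 72 with DESeq2 size factors, 105 with library totals, 30.0 with no filter, 7 with 50 counts in 2 libraries, 71 with only the groups compared, 23 with the GC trend removed and 76 to 167 with an IP left out. Without mitochondrial genes in the total, the members held 3.29% of human counts in the input and 3.199% in HEK293 cells. Without COX5A and UQCRFS1 the share in HEK293 cells was 2.87%. The cause of these shifts was not tested.

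With IP order as a replicate block the calls over all genes were 51, 24, 28 and 63 in HA against input, V5 and HEK293 cells and in V5 against input. The block gave 1 member call, UQCR11 in HA against HEK293 cells, and a member median of 0.23 in HA against input. The first HA and V5 IPs share lysate 1, and the second ones come from lysates 5 and 4. Deviations of the first from the second IP correlated between the HA and V5 pairs with r = 0.0913 over 6244 genes. Over the 2063 genes whose mean of log2 CPM exceeded the log2 of 50, r was 0.206. That mean of logs is not the mean over 50 CPM used above. Of 219 alternative values of the 18 changes by which members were named, 0 changed sign. Those changes were picked as the highest and lowest of the same data, which favours a kept sign, so this does not measure how stable the members are. Depth limits the V5 IPs, where 3 counts stand for 23.3 and 36.7 CPM.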
